A study of Mus musculus with 55 samples.

Results

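The 7 genes described here are Avpr1b, Rgs14, Pcp4, Amigo2, Cacng5, Necab2 and Map3k15, a set of genes used to mark field CA2 of the hippocampus. They were taken from the gene count table by gene symbol, by a rule that uses no measured value, though the set was proposed with earlier results of these data known, and are 7 of 55487 genes. All 7 were among the 16168 genes tested. The question was whether Avpr1b, the vasopressin receptor of this set, followed the other 6 genes from mouse to mouse and from group to group.

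The study sequenced poly(A) RNA from the dorsal hippocampus of 55 mice of a C57/BL6j background, with 1 library per mouse. The 27 wild-type (WT) mice were 5 males and 22 females, of which 4 were in metestrus, 6 diestrus, 5 proestrus and 7 estrus. The 28 homozygous Cnih3 knock-out (KO) mice were 7 males and 5, 6, 4 and 6 females in the same stages. Cnih3 encodes an auxiliary protein of AMPA-type glutamate receptors, and the stages were read from vaginal cytology. By the study's animal records, all KO mice and 11 WT mice had a parent of the Cnih3 line and 16 WT mice had B6 parents only. The 3 WT diestrus mice under 14 weeks were of the first kind and 6 of 7 WT estrus mice of the second. Of the WT males, 4 of 5 were of the first kind, as were 4 diestrus females and 1 each in metestrus, proestrus and estrus. Ages ran from 10.86 to 23.71 weeks and were uneven, since 4 of 6 KO diestrus mice and 3 of 6 WT diestrus mice were under 14 weeks while no KO male and 1 WT male was.

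CA2 is a small field of pyramidal neurons between CA3 and CA1. It is known for its part in social memory, and its neurons resist the long-term potentiation that is readily induced in CA1. Vasopressin and oxytocin act there through G protein-coupled receptors, of which Avpr1b has a narrow distribution in the brain, with CA2 as its best-known site, and is also a receptor of the corticotroph cells of the pituitary. Rgs14 encodes a scaffold that limits plasticity in CA2 neurons, Pcp4 a small calmodulin regulator, Amigo2 an adhesion protein of the cell surface, Cacng5 a transmembrane AMPA receptor regulatory protein, Necab2 a neuronal calcium-binding protein and Map3k15 a kinase of the MAP3K family. Several of these genes are also expressed outside CA2, and in tissue of mixed cells fewer CA2 neurons and less RNA per neuron cannot be told apart.

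The libraries held 25881295 to 63547098 counts (median 53384170). Levels are given in CPM, counts relative to the TMM-scaled library total, and RPKM divide these by the gene's exonic length in kilobases. The KO allele lacks a single exon of Cnih3, so its gene count does not check the genotype: Cnih3 was at 21.6 to 62.5 CPM in WT (median 39.5) and 21.6 to 47.8 CPM in KO mice (median 31). KO against WT gave -0.34 on the log2 scale (SE 0.079, FDR 0.00692). The study itself reports the loss of that exon from read coverage in its KO samples. The library of WT proestrus mouse 8_2 had the lowest quality weight, 0.194 against a median of 1.14.

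Upstream sequences are shown for Amigo2 and Cacng5, because these 2 genes were called lower in the same 2 diestrus comparisons, described further on, and because Cacng5 has 2 annotated starts. RefSeq promoter windows were matched for 4 of the 7 genes (Amigo2, Cacng5, Necab2 and Pcp4). The 250 bases before each start are given 5′ to 3′ on the strand of the gene, build GRCm38.p6, with capitals for the GC box GGGCGG and the CCAAT box CCAAT on either strand. No 2 of these matches overlap.
Amigo2, chr15:97247288-97247537, minus strand: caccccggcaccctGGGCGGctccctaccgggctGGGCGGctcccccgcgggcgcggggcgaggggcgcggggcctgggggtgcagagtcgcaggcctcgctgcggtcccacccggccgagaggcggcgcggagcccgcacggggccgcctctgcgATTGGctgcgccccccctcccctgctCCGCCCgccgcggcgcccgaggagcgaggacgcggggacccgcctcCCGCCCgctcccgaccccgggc
Cacng5, upstream start, chr11:107915056-107915305, minus strand: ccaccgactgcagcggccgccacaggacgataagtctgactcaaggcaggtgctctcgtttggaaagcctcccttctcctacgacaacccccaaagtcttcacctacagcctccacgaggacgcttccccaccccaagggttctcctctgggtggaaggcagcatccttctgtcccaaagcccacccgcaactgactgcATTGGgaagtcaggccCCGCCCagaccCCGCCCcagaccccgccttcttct
Cacng5, downstream start, chr11:107911363-107911612, minus strand: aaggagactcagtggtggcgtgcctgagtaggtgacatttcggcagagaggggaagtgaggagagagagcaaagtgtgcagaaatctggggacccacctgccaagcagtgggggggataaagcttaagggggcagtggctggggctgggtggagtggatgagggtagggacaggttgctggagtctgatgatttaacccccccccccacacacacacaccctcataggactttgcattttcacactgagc
The Amigo2 window held 4 GC boxes and 1 CCAAT box, and 84.0% of its bases were G or C. The window of the upstream Cacng5 start held 2 GC boxes and 1 CCAAT box (62.0% G or C), and that of the downstream start held neither (56.8%). Over all 32841 windows of this length, 32.7% held a GC box and 33.9% a CCAAT box, and the median share of G and C was 52.4%. The half-site AGGTCA of estrogen receptors, searched on both strands, was absent from these 3 windows and from that of Necab2. Pcp4 had 1 match, with its first base at -164 from the start, and 14.0% of all windows had one. The half-site AGAACA of glucocorticoid and mineralocorticoid receptors was in none of the 5 windows of the members and in 16.1% of all. These are matches of letters and were not tested as binding sites.

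Avpr1b was the lowest of the 7 genes. Its gene lies on chromosome 1 from 131599239 to 131612000 (GRCm38, plus strand), overlaps no other annotated gene, and had 0 to 84 counts per library (median 45). Its median level was 0.222 RPKM, close to the 0.265 RPKM of Map3k15 and far below Cacng5 (3.61 RPKM), Amigo2 (4.63), Necab2 (23.3), Rgs14 (58.1) and Pcp4 (58.9). Only 14 of 55 libraries had more than 1 CPM of Avpr1b, against 31 for Map3k15 and all 55 for each of the other 5 genes. Its level ranked at the 1.71 percentile of all tested genes and its spread between mice of a group, an SD of 0.94 on the log2 CPM scale, at the 98.4 percentile. The spread of the other 6 genes ran from 0.21 (Necab2) to 0.44 (Map3k15).

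Pcp4 had few gene reads for its transcript counts. Its exons share 243 of 1026 bases (23.7%) with the exons of Igsf5 on the same strand, and the authors counted only reads that were unambiguous. The gene count of Pcp4 was 0.576 reads per estimated transcript count in the authors' second table, against a median of 2.55 over 14670 genes, which put Pcp4 at the 1.23 percentile. Igsf5 itself had a median of 1 count. Whether the shared bases account for the low ratio of Pcp4 was not tested. Map3k15 shares 13.9% of its exon bases with Pdha1 on the other strand and had a ratio of 1.58. Avpr1b, Amigo2, Cacng5 and Necab2 had ratios of 2.34 to 2.54. Rgs14 (chromosome 13, 55369732 to 55384687) had 44.5, because the transcript table as used here holds its retained-intron and decay transcripts and not its main coding transcript, so the transcript-based values of Rgs14 were not comparable.

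In WT males Avpr1b had 0.870, 0.557, 0.405, 0.353 and 0 CPM, from 46, 26, 20, 18 and 0 counts. The mouse at 0 was WT male 2015, the only library of the 55 without a count. Its estimated count of the transcript Avpr1b-201 was also 0, while Avpr1b-202 was at 0 in all 55 mice. These estimates come from the same libraries as the gene counts and are no separate evidence. A count of 0 there allows up to 0.0770 CPM (3 counts), and the lowest of the other 54 mice had 0.194 CPM. That limit covers counting error only. Of gene counts from 1 to 10, 60.1% were even, so some read pairs may have been counted once per read, in which case the limit would be higher. In WT metestrus the values were 0.83, 0.733, 0.584 and 0.489 CPM, and in WT proestrus 0.954, 0.936, 0.831, 0.454 and 0.353 CPM. WT diestrus ranged from 0.370 to 1.24 CPM (median 0.949) and WT estrus from 0.677 to 1.45 CPM (median 1.08). The 4 WT males above 0 overlapped the females and the male group had the lowest mean of the 10 groups, 0.437 ± 0.317 CPM (SD, n = 5).

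In KO mice the order of males and females was not that of WT mice. KO males had 0.860 to 1.60 CPM (median 0.921), with 6 of 7 between 0.860 and 1.12. The 4 KO proestrus mice had 0.992, 0.819, 0.635 and 0.593 CPM and the 5 in metestrus 1.504, 1.11, 0.640, 0.525 and 0.461 CPM. KO diestrus ranged from 0.194 to 1.26 CPM (median 0.813) and KO estrus from 0.505 to 1.57 CPM (median 1.06). The KO males thus lay in the upper part of the range of the KO females. Ranked by mean CPM, the groups ran from KO estrus (1.10 ± 0.407, n = 6) and WT estrus (1.09 ± 0.271, n = 7) through KO males (1.04 ± 0.264, n = 7), KO metestrus (0.848 ± 0.446), WT diestrus (0.833 ± 0.347), KO diestrus (0.772 ± 0.444), KO proestrus (0.760 ± 0.184), WT proestrus (0.706 ± 0.282) and WT metestrus (0.659 ± 0.152) to WT males. None of the 9 gaps between neighbours in this order exceeded the larger SD of its pair.

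**Figure D1:**
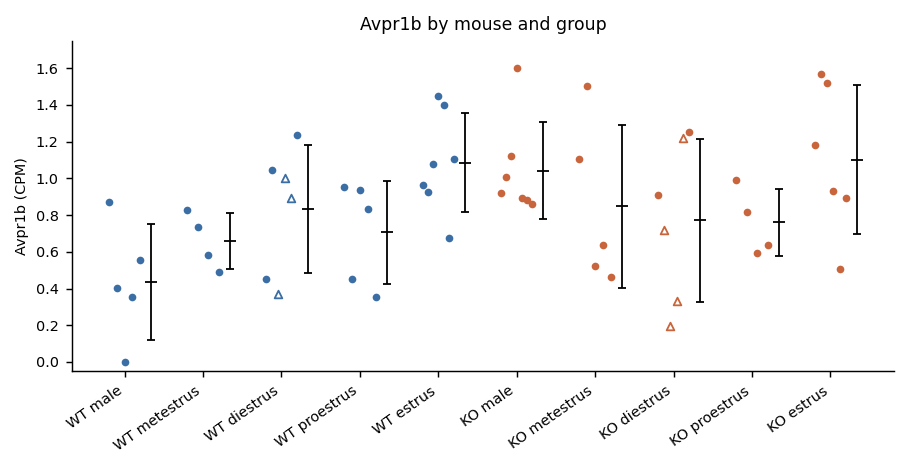
Avpr1b in CPM (counts relative to the scaled library total, vertical axis) for each of 55 mice in 10 groups (horizontal axis; blue WT, orange KO; open triangles, diestrus mice under 14 weeks), with group mean and SD in black. A single WT male sits at 0, the other 4 lie between 0.353 and 0.870 CPM, and the KO males lie between 0.860 and 1.60 CPM.

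The size of the sex difference of Avpr1b in WT mice depended on the library at 0. Against WT males, the mean of the 4 WT stages differed by 2.24 on the log2 scale (SE 0.63, limma, FDR 1), and 5 genes (0.0309% of those tested) were called in that comparison at a false discovery rate (FDR) under 0.05. On the linear scale, WT females had 0.853 ± 0.314 CPM (n = 22) and WT males 0.437 ± 0.317 CPM (n = 5), a ratio of 1.95 (exact permutation test, two-sided, p = 0.0134 over 80730 arrangements, and 0.0268 adjusted over this and the KO comparison). The study had already listed Avpr1b as nominally higher in WT females in these same libraries. The permutation p therefore tests a difference known beforehand and is no independent support for it. Without WT male 2015 the limma value was 0.82, the male mean was 0.547 ± 0.232 CPM, the ratio 1.56 and the exact permutation p 0.0778. Without WT male 2052 the limma value was 3.56 with an FDR of 0.0387. The size of the limma value depends on the 0.5 counts added before the logarithm, which set the library at 0 to -6.28 log2 CPM. In WT mice sex also went in part with parents of the Cnih3 line (4 of 5 males), and the 2 cannot be fully told apart. The permutation test took neither parents nor stage into account.

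In KO mice the female mean of Avpr1b was 0.882 ± 0.396 CPM (n = 21) and the male mean 1.04 ± 0.264 CPM (n = 7). The difference was -0.33 on the log2 scale (SE 0.26, 95% interval -0.85 to 0.19, FDR 0.504), and the exact permutation test on CPM gave p = 0.332. In this comparison 959 genes (5.93%) were called. Against males of the same genotype, Avpr1b had 1.91 in WT metestrus, 2.27 in WT diestrus, 2.17 in WT proestrus and 2.60 in WT estrus (lowest FDR 0.108, in diestrus), all against the 5 males that include the library at 0, and, in the same order of stages, -0.39, -0.83, -0.26 and 0.17 in KO mice (lowest FDR 0.0746, in diestrus). The difference between the genotypes in the sex effect was -2.57 (SE 0.68, FDR 1), where 0% of genes were called and 490 had an unadjusted p under 0.05. It was -1.15 without WT male 2015 and -1.13 by edgeR and -1.14 by DESeq2. Over the 5 conditions, KO against WT gave 0.49 (SE 0.21, FDR 0.200), in a comparison with 549 called genes (3.4%).

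None of the 7 genes was called between females and males or between genotypes by limma (14 and 7 tests, of which 5 and 3 had an unadjusted p under 0.05), and edgeR's quasi-likelihood test and DESeq2 gave no call there either. Such a p was held by 3 members in WT females against males, beside 334 of all 16168 genes. It was held by 2 members in KO females against males (3487 genes) and by 3 between genotypes (2772 genes). In WT mice Amigo2 had -0.45 (SE 0.16) and Cacng5 -0.31 (SE 0.14), both lower in females with an FDR of 1, and Rgs14, Pcp4, Necab2 and Map3k15 ranged from -0.15 to -0.02. Between genotypes, Pcp4 had -0.17 (SE 0.06, FDR 0.0969) and Cacng5 0.14 (SE 0.07, FDR 0.280). Genotype went in part with parents of the Cnih3 line, and the 2 cannot be fully told apart. In KO mice the 6 values ran from -0.23 (Cacng5, FDR 0.140) to 0.13 (Map3k15, FDR 0.733). In WT mice the sign of Avpr1b was opposite to that of all 6, of which Pcp4 turned to 0.07 by both edgeR and DESeq2. The median of the 6 was -0.14 in WT and -0.08 in KO mice, beside -0.01 and -0.004 over all tested genes. Leaving out WT male 19_1 or 1949 gave Amigo2 -0.62 or -0.64 in WT mice, with FDRs of 0.0435 and 0.0189, and leaving out the diestrus mice under 14 weeks gave Rgs14 -0.31 with an FDR of 0.0391 in KO mice.

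Calls among the 7 genes came from diestrus. Against WT males, no member was called by limma in any WT stage (28 tests, 9 with an unadjusted p under 0.05, and no call by edgeR or DESeq2), where metestrus, diestrus, proestrus and estrus had 0.0309%, 0.068%, 0.0309% and 0.0495% of genes called. In the same order, 1, 3, 3 and 2 members had an unadjusted p under 0.05, beside 759, 2626, 609 and 1286 of 16168 genes. Against KO males, 2 of 28 tests were called, both in diestrus (28.7% of genes), and 0.359%, 0.315% and 7.66% of genes were called in metestrus, proestrus and estrus. The 4 comparisons of a genotype share its males, and pairs of stages share mice likewise. Of the pairs of WT stages, 2 of 42 tests were called, both in diestrus against estrus (22.1% of genes). The other WT pairs had 7.24% (metestrus and diestrus), 0.767% (metestrus and proestrus), 0% (metestrus and estrus, 705 genes at an unadjusted p under 0.05), 9.66% (diestrus and proestrus) and 6.82% (proestrus and estrus). Of the pairs of KO stages, 4 of 42 tests were called, in diestrus against proestrus (34.3%) and estrus (30.7%). The other KO pairs had 10.4% (metestrus and diestrus), 4.37% (metestrus and proestrus), 0% (metestrus and estrus, 1367 genes at an unadjusted p under 0.05) and 0.507% (proestrus and estrus). Each of these 4 comparisons called 2 of the 7 members, a share near that of all genes in it, so the counts are no result about the members.

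Amigo2 (chromosome 15, 97244125 to 97247287) was called in 3 comparisons. The 6 WT diestrus mice had 6.22, 7.90, 9.67, 12.5, 16.5 and 16.5 CPM, and the 6 KO diestrus mice had 7.23, 9.73, 11.0, 11.1, 12.6 and 20.4 CPM. The 3 lowest WT values were those of the 3 mice under 14 weeks, and the 4 KO mice under 14 weeks had 7.23 to 12.6 CPM. WT estrus ranged from 11.1 to 21.9 CPM, KO males from 14.0 to 19.3 CPM and KO proestrus from 16.8 to 20.7 CPM. The KO diestrus mouse 7_1 lay inside the range of the KO proestrus mice and the other 5 lay below all of them. Of these 4 KO proestrus mice, 3 were themselves aged 13 to 13.57 weeks. Amigo2 was lower in WT diestrus than in WT estrus, with -0.70 (SE 0.18, FDR 0.00498). In KO diestrus it was lower than in males, with -0.57 (SE 0.15, FDR 0.00353), and than in proestrus, with -0.82 (SE 0.17, FDR 0.000214). Without WT diestrus mouse 548, 549 or 569 the WT value was -0.22 to -0.26 (FDR 0.441 to 0.475).

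Cacng5 (chromosome 11, 107874605 to 107915055) was called in 2 of the same comparisons. The KO diestrus mice had 11.1, 12.1, 12.4, 13.0, 13.3 and 13.7 CPM, a narrow group. KO males ranged from 9.88 to 18.9 CPM and the 4 KO proestrus mice had 9.95, 16.5, 17.7 and 19.2 CPM, so 5 of 7 males and 3 of 4 proestrus mice lay above every diestrus mouse. Cacng5 differed in KO diestrus by -0.45 from males (SE 0.12, FDR 0.00495) and by -0.43 from proestrus (SE 0.14, FDR 0.0167). Without KO proestrus mouse 12_4 or 12_5 the second value was -0.38 or -0.41, with FDRs of 0.122 and 0.0942. WT diestrus had the lowest group mean, 12.4 ± 3.94 CPM, with 7.63, 8.85 and 11.7 CPM in the mice under 14 weeks and 12.5, 16.6 and 17.3 CPM in the older ones.

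Rgs14 was higher in diestrus than in estrus in both genotypes. The WT diestrus mice had 194, 275, 276, 278, 306 and 329 CPM and WT estrus mice 192 to 234 CPM, so 5 of 6 diestrus mice lay above every estrus mouse. The KO diestrus mice had 181, 207, 246, 313, 316 and 322 CPM against 181 to 287 CPM in KO estrus. The differences were 0.40 in WT (SE 0.13, FDR 0.0221) and 0.31 in KO mice (SE 0.12, FDR 0.0481). Against males, diestrus had 0.08 in WT (FDR 0.816) and -0.05 in KO mice (FDR 0.770), and estrus had -0.32 (FDR 0.592) and -0.36 (FDR 0.0521). The WT value was 0.33 to 0.36, with an FDR of 0.0538 to 0.241, without diestrus mouse 548, 549 or 569 or estrus mouse 1_1, and the KO value ranged from 0.18 to 0.44 over single mice left out and lost its call in 20 of 55.

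Avpr1b itself was called once. In KO estrus it had 1.57, 1.52, 1.18, 0.933, 0.896 and 0.505 CPM, and in KO diestrus 1.26, 1.22, 0.908, 0.719, 0.333 and 0.194 CPM. The 2 lowest diestrus values belonged to mice 643 and 644, aged 11 and 10.86 weeks, and the remaining values overlapped. The difference was -0.99 on the log2 scale (SE 0.38, FDR 0.0424), and without mouse 643 it was -0.62 (FDR 0.212). The FDR also rose to 0.05 or above without 644 (-0.75, FDR 0.135), 12_2 (-0.83, 0.139), 12_3 (-0.79, 0.132), 9_1 (-1.01, 0.0688) or the WT diestrus mouse 549 (-0.96, 0.05).

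Pcp4 (chromosome 16, 96467606 to 96525793), Necab2 (chromosome 8, 119446719 to 119472640) and Map3k15 (X chromosome, 159988433 to 160123351) were called by limma in none of 24 comparisons, with 4, 1 and 2 unadjusted p under 0.05, and by neither edgeR nor DESeq2. Of these 3, Necab2 had the smallest ratio of highest to lowest group mean (1.30), with group means from 45.2 ± 2.32 CPM (WT metestrus, n = 4) to 58.9 ± 7.72 CPM (KO proestrus, n = 4). Pcp4 ran from 55.4 ± 9.39 CPM in KO metestrus (n = 5) to 74.1 ± 15.4 CPM in WT estrus (n = 7), and its mouse at 129 CPM, WT proestrus 8_2, was also the highest for Necab2 at 77.4 CPM. Map3k15 ran from 0.998 ± 0.260 CPM in WT metestrus to 1.49 ± 0.358 CPM in WT estrus. The highest group mean was 2.52 times the lowest for Avpr1b and 1.27 to 1.58 times for the other 6, with WT males lowest for Avpr1b alone. The WT male mean of Avpr1b, 0.437 CPM, includes the library at 0 and was 0.547 CPM without it.

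**Figure D2:**
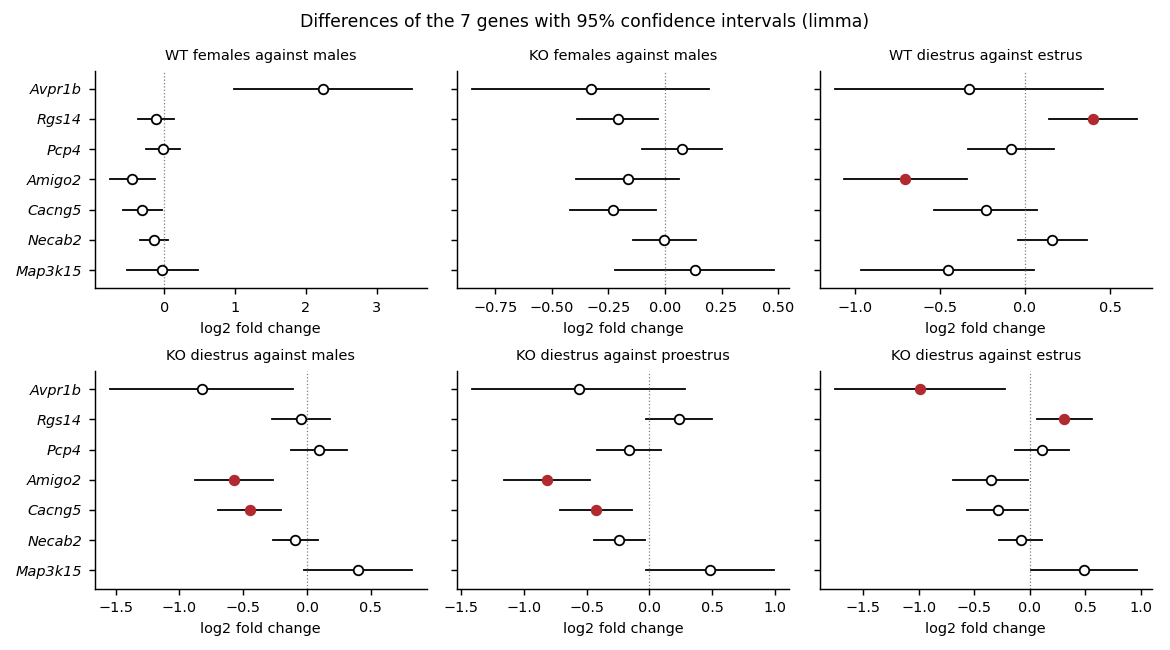
Log2 fold changes (horizontal axis, scaled separately in each panel) with 95% confidence intervals for the 7 genes (vertical axis) in 6 comparisons, filled red where the FDR was under 0.05. The panels hold females against males and every comparison in which a member was called. Amigo2 lies below 0 in all 6 panels, though not in every comparison (0.46 in KO proestrus against estrus, not shown). Avpr1b has the widest interval in each panel.

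None of the 8 calls was left without the 7 diestrus mice under 14 weeks. That set held 48 mice, with 3 WT and 2 KO diestrus mice. The share of all genes called is not given for it or the fits below, so these counts are no result about the members. In that set Amigo2 had -0.15 in WT diestrus against estrus (FDR 0.847), and -0.07 and -0.31 in KO diestrus against males and proestrus (FDR 0.988 and 0.851). Cacng5 had -0.36 and -0.34 in its 2 KO comparisons, with FDRs of 0.602 and 0.827, and Rgs14 had 0.25 in WT (FDR 0.757) and -0.07 in KO mice (FDR 1). Avpr1b had -0.06 in KO diestrus against estrus (FDR 1). With age in weeks in the model, 4 of the 8 remained: Amigo2 in KO diestrus against proestrus (-0.80, FDR 0.000770), Cacng5 in the same comparison (-0.415, FDR 0.0336), and Rgs14 in WT (0.44, FDR 0.0269) and KO mice (0.365, FDR 0.0484). By edgeR's quasi-likelihood test none of the 8 was called and by DESeq2 1, Amigo2 in KO diestrus against proestrus (-0.60, FDR 0.0467). Among the diestrus mice, what goes with the stage and what goes with an age under 14 weeks cannot be told apart.

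**Figure D3:**
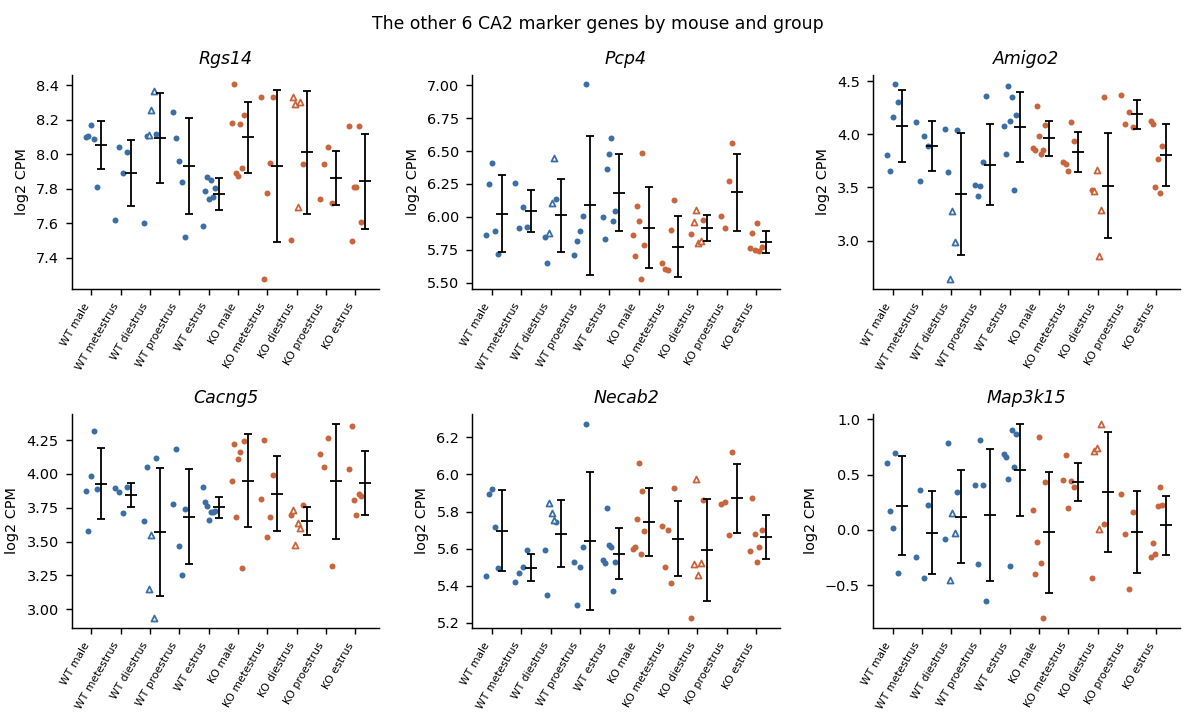
Log2 CPM (vertical axes, scaled per gene) of Rgs14, Pcp4, Amigo2, Cacng5, Necab2 and Map3k15 for each mouse in 10 groups (blue WT, orange KO; open triangles, diestrus mice under 14 weeks), with group mean and SD in black. The 3 young WT diestrus mice are the lowest of their group for Amigo2, from 2.64 to 3.28, and WT proestrus mouse 8_2 stands alone at 7.01 for Pcp4.

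From mouse to mouse within groups, Avpr1b was not shown to follow any of the other 6 genes. With group means removed from log2 CPM, Pearson's r over 55 mice was -0.12 with Rgs14, -0.25 with Pcp4, 0.09 with Amigo2, 0.10 with Cacng5, -0.27 with Necab2 and 0.19 with Map3k15. Adjusted over 77 relations (permutation test, 100000 resamples within groups, two-sided), p ran from 0.214 (Pcp4) to 0.764 (Amigo2). Spearman's rho ran from -0.11 (Rgs14) to 0.23 (Map3k15), with adjusted permutation p of 0.349 to 0.767. Without the 2 mice farthest from the median of Avpr1b, WT male 2015 and KO diestrus 643, r with Pcp4 and Necab2 was -0.13 each and r with Map3k15 was 0.27.

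The other 6 genes did not form 1 block either. Of their 15 pairs, 1 passed: Pcp4 with Necab2, r = 0.66 (adjusted permutation p = 0.000770) and rho = 0.59 (adjusted permutation p = 0.00116), with r = 0.56 without the 2 mice farthest from the median, 8_2 and 2590. Amigo2 and Cacng5 had r = 0.37 (rho 0.35, adjusted permutation p = 0.106 and 0.131) and Pcp4 and Cacng5 r = -0.37 (rho -0.34, adjusted permutation p = 0.140 and 0.163). Pearson's r for Rgs14 with the other 5 lay between -0.22 (Amigo2) and 0.26 (Map3k15).

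Several of the 6 moved with or against lists of marker genes. Each of 8 marker lists, for a hippocampal field or a tissue near the dissection, was scored as the mean z-score of its tested genes. Genes of a list did not always move together. In KO diestrus against males, the thalamus list had Tcf7l2 at 0.36, Prkcd at -0.44 and Ntng1 at -0.52. The CA1 list had Mpped1 at 0.31, Fibcd1 at -0.49 and Wfs1 at -0.79 there, all with an FDR under 0.05. A score is therefore no measure of how much of a region was dissected. Pcp4 moved against the neocortex list (Rorb, Cux2, Fezf2, Scnn1a and Etv1, with Rspo1 not tested), r = -0.74 and rho = -0.70, with adjusted permutation p of 0.000770 for both and r = -0.65 without mice 8_2 and 2590. The raw permutation p of that relation, 1e-05, is the smallest that 100000 resamples can give. Pcp4 also had r = -0.41 with the CA1 list (rho -0.42, adjusted permutation p = 0.0330 and 0.0593) and -0.41 with the thalamus list (rho -0.43, 0.0340 and 0.0439, permutation), and Necab2 had r = -0.44 with the neocortex list (rho -0.38, adjusted permutation p = 0.0383 and 0.0790). Without the farthest 2 mice these r were -0.43, -0.32 and -0.37.

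Cacng5 had r = 0.48 with the thalamus list (rho 0.41, adjusted permutation p = 0.0330 and 0.0790) and 0.35 with the CA3 list (rho 0.38, adjusted permutation p = 0.0453 and 0.0790). Rgs14 had r = -0.43 with the dentate gyrus list (rho -0.39, adjusted permutation p = 0.0330 and 0.0790) and Map3k15 r = 0.39 with the striatum list (rho 0.34, adjusted permutation p = 0.0402 and 0.111). Without the farthest 2 mice these r were 0.36, 0.26, -0.40 and 0.37. By Spearman's rho, of these relations to lists only those of Pcp4 with the neocortex and thalamus lists had an adjusted permutation p under 0.05. The summed level of the neocortex list ran from 165 to 337 CPM over all mice and that of the thalamus list from 57.7 to 109 CPM, with overlapping ranges in all 10 groups. With the share of counts on mitochondrial genes (1.46% to 5.24%) Pcp4 had r = 0.53 (rho 0.38, permutation p = 0.0321 and 0.0761, adjusted over 91 relations), and r was 0.35 without mice 8_2 and 2590. The part of the dissection and of the mitochondrial share in the levels of the members was not tested.

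Avpr1b had r between -0.05 and 0.18 with the 8 lists, none with an adjusted permutation p under 0.05. The lowest was the pituitary list (r = -0.05, rho 0.01, adjusted permutation p = 0.903 and 0.994), whose summed level ran from 4.64 to 246 CPM. Of that list 3 of 9 genes were tested, and Tbx19, a defining factor of corticotroph cells, had 0 to 11 counts. With the library total Avpr1b had r = 0.28 (rho 0.28, permutation p = 0.109 and 0.180, adjusted over 91 relations). By Spearman's rho over the 55 log2 CPM values, given as a description over 16168 genes of the same libraries, the genes most like Avpr1b were 9330121K16Rik (0.52), Zfx (0.52), Adat1 (0.51), Qsox1 (0.50) and Glce (0.48). Of the members, Map3k15 ranked at 1828 (0.22), Cacng5 at 2820 (0.18), Amigo2 at 4347 (0.12), Necab2 at 8921 (-0.02), Pcp4 at 11455 (-0.10) and Rgs14 at 11544 (-0.10). To the mean z-score of the other 6, the most alike genes were Snrpf, Lsm4, Syndig1l, Ccdc3 and Rgs10 (rho from 0.52 to 0.54), and Avpr1b ranked at 5302 (0.10). Ccdc3 is itself known as a CA2-enriched gene.

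**Figure D4:**
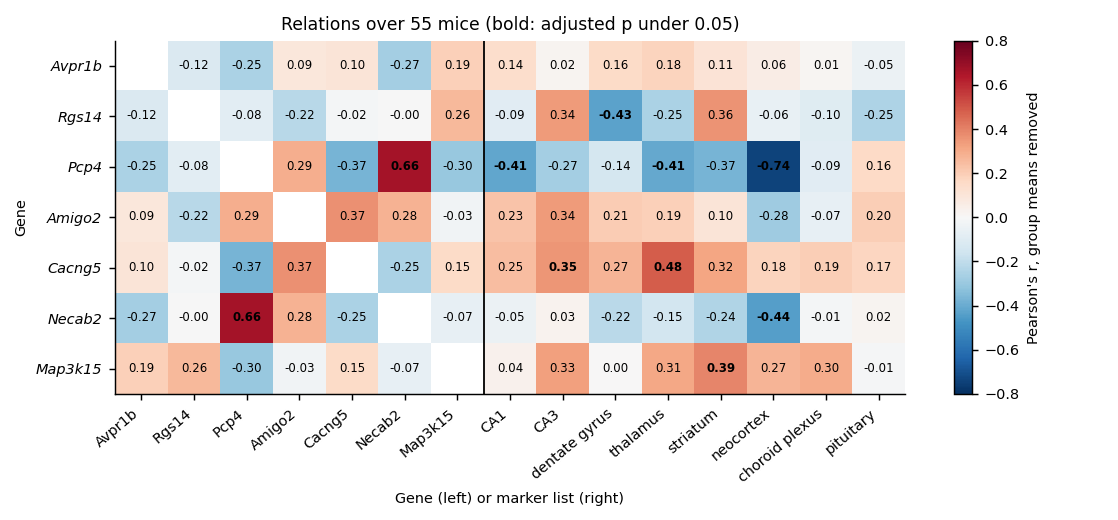
Pearson's r over 55 mice with group means removed, between each of the 7 genes (vertical axis) and the same genes (left of the line) or the mean z-score of 8 marker lists (right of it), bold where the adjusted permutation p was under 0.05. The row of Avpr1b has no bold value, and the strongest values are Pcp4 with Necab2 (0.66) and with the neocortex list (-0.74).

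Of 8 further genes enriched in CA2, all were tested: Ptpn5, Actn2, Ntf3, Nr3c2, Acan, Ccdc3, Fgf2 and Adora1. Acan encodes aggrecan, the core proteoglycan of the perineuronal nets that surround CA2 neurons, and Ptpn5 the phosphatase STEP. Acan was lower in diestrus than in estrus, with -0.94 in WT (SE 0.30, FDR 0.0204) and -1.03 in KO mice (SE 0.26, FDR 0.00251). It was also lower in KO diestrus than in males, with -0.92 (SE 0.24, FDR 0.00362). Ptpn5 was lower in KO diestrus than in males, with -0.46 (SE 0.08, FDR 5.11e-05), and higher in KO than in WT mice by 0.20 (SE 0.04, FDR 0.00509). All KO mice but only some WT mice had a parent of the Cnih3 line, so genotype and parents cannot be fully told apart. Actn2, which encodes an actinin of the postsynaptic density, was higher in KO diestrus than in proestrus by 0.39 (SE 0.14, FDR 0.0272). Of the 8, none was called in WT females against males and 1, Ptpn5, in KO females against males (-0.28, SE 0.07, FDR 0.00832). In KO diestrus against males 2 of 8 were lower and none higher, beside 28.7% of all genes called, and the median of the list was -0.05, beside -0.0023 over all genes. Ntf3, Nr3c2, Ccdc3, Fgf2 and Adora1 were called by limma in none of the 24 comparisons. Without the diestrus mice under 14 weeks, an alternative added after seeing the data, Acan had -0.077 (KO) and 0.065 (WT) in diestrus against estrus and 0.025 in KO diestrus against males, with FDRs of 1, 0.965 and 0.998. Ptpn5 had 0.19 in KO against WT (FDR 0.0392), -0.27 in KO females against males (FDR 0.0243) and -0.39 in KO diestrus against males (FDR 0.325), and Actn2 had 0.080 in KO diestrus against proestrus (FDR 0.964).

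Of 7 genes of the vasopressin and oxytocin system, Oxtr, Lnpep and Cd38 passed the filter on low counts and Avp, Oxt, Avpr1a and Avpr2 did not. Avp, the vasopressin precursor, had 0 to 162 counts (median 20), Oxt 0 to 43 (median 9), Avpr1a 0 to 56 (median 10) and Avpr2 0 to 2, with 45 of 55 libraries at 0. Oxtr, the oxytocin receptor, had a median of 1.66 CPM and was called in no comparison. Lnpep, the aminopeptidase that degrades both peptides, was lower in diestrus than in estrus, with -0.55 in WT (SE 0.13, FDR 0.00202) and -0.49 in KO mice (SE 0.12, FDR 0.00176). Without the diestrus mice under 14 weeks these values were -0.18 (FDR 0.766) and -0.054 (FDR 1). Over these further CA2 genes and the vasopressin and oxytocin genes, the 24 comparisons held 16 calls, and 4 were left without those mice. These were 3 of Ptpn5 and 1 of Lnpep (WT proestrus against estrus, -0.37, FDR 0.0278). Calls not named above were those of Acan in KO diestrus against proestrus and in metestrus against diestrus of both genotypes. Further ones were Ptpn5 in KO estrus against males, and Ptpn5 and Lnpep in KO diestrus against proestrus. The share of all calls left in that refit is not given, so these counts are no result about the genes.

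The 2 annotated starts of Cacng5 could be followed in the authors' estimated transcript counts. The transcript from the upstream start had 0 to 450 estimated counts (median 103) and that from the start inside the gene 0 to 400 (median 187). The 2 together had 124 to 483. The share of the upstream transcript ran from 0% to 100% with a median of 36.5%, it was at 0 in 10 mice and the other in 7, and the range within single groups was as wide (0% to 100% in KO males, WT diestrus and WT proestrus). No comparison of groups was made on the 2 transcripts. An estimate of 0 can be a failure of the estimate, and none of the values tests the use of a start.

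**Figure D5:**
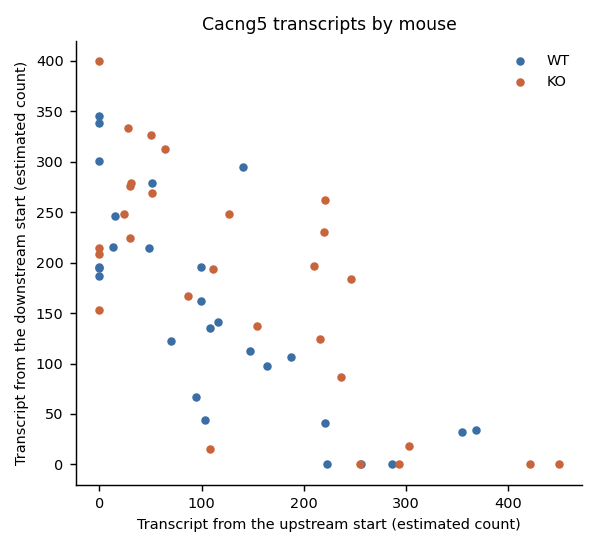
Estimated counts of the Cacng5 transcripts from the upstream start (horizontal axis) and the downstream start (vertical axis) for 55 mice, 1 point each (blue WT, orange KO). Points lie along both axes, 10 mice with the upstream transcript at 0 and 7 with the downstream one at 0.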

How the data were processed

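Poly(A) RNA of the dorsal hippocampus was sequenced by the authors, who aligned read pairs to GRCm38 (STAR 2.7.9a) and deposited gene counts (featureCounts 2.0.3, uniquely aligned unambiguous reads). The authors also deposited estimated counts per transcript, with Salmon 1.5.2 named in the submitters' processing notes, and log2 CPM values. The estimated counts were summed per gene and rounded for an alternative. The deposited log2 CPM served as a check and matched the values here within 5e-14 over 16164 genes. 1 column without a sample was not used, and no strand setting is given in the sources used here.

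A gene was tested where 10 or more libraries had over 1 CPM and it was no ribosomal RNA. After TMM scaling (edgeR 4.0.16, R 4.3.3), limma 3.58.1 estimated a mean per group, using voom with a quality weight for each library and moderated variances. FDR is the Benjamini-Hochberg value over 16168 genes. Relations were tested by permuting mice within groups, adjusted over 77 relations, or 91 with the 14 to library measures. Those 14, the tests of Avpr1b on the CPM scale and the refit of the list genes without young diestrus mice were added after seeing the data. Gene places and exons are of GENCODE for GRCm38. Each mouse was 1 replicate, and no 2 libraries were copies (highest correlation 0.983). Alternatives were edgeR's quasi-likelihood test, DESeq2 1.42.0, no weights, no filter, age, parents, transcript counts, no diestrus mice under 14 weeks and each mouse left out. For the relations they were no centring, a prior count of 5 and the same restrictions. Genes named were the 7 members, lists of CA2, vasopressin and oxytocin and marker genes, and the 5 genes most like Avpr1b or the other 6. The members and lists were chosen with earlier results of these data known. The fits and permutations were tested on simulated data.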

Additional observations from a re-analysis of the deposited data

Results flagged for a closer look

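Of 70 combinations of gene and group, 6 had a mouse farther from its group than Dixon's 95% critical value, where chance alone gives about 1 in 20. In WT males, Avpr1b of mouse 2015 was at -6.28 log2 CPM, a count of 0, with the nearest male at -1.46. In KO males, Avpr1b of mouse 2129 was at 0.69 with the nearest at 0.18. Rgs14 was low in WT male 2052, at 7.81 with the nearest at 8.09, and in WT diestrus mouse 2_2, at 7.6 with the nearest at 8.11. Pcp4 of WT proestrus mouse 8_2 was at 7.01 with the nearest at 6.01, in the library with the lowest quality weight. Map3k15 of WT estrus mouse 3_2 was at -0.33 with the nearest at 0.46. No explanation of these values was tested.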

How the results depend on the processing

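The sex difference of Avpr1b kept its direction in WT and in KO mice, and the difference between genotypes kept its own, under every alternative run. Against 2.24, the WT value was 0.86 by edgeR, 0.87 by DESeq2, 1.54 without weights and 1.39 in the Cnih3 line, and against -0.33 the KO value was -0.10 without the diestrus mice under 14 weeks. Leaving out each mouse in turn gave 0.82 to 3.56 in WT (past the threshold only without male 2052), -0.42 to -0.24 in KO and -3.88 to -1.15 for the difference between genotypes. The ratio of CPM in WT mice, 0.96 on the log2 scale, had p = 0.0134 in the exact permutation test, added after seeing the data, and p = 0.0778 without the library at 0 (male 2015). The study had already listed this difference from the same libraries, so that test is no independent support. None of the 6 relations of Avpr1b passed in any alternative, with 0 to 0 over single mice left out.

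Calls among the members depended on the processing, and no cause of this, including the smaller number of mice, was tested. Shares of all genes called are given only for the main fit and the mice of the Cnih3 line. The changes of these counts elsewhere are therefore no result about the members. Of the 2 calls of KO stages against males, 0 were left by edgeR, DESeq2, no weights or age, and without the diestrus mice under 14 weeks there was 1, not among those 2 (Rgs14 in estrus, -0.37, FDR 0.0364). Of the 2 calls between WT stages, 0 were left by edgeR and DESeq2, and the count was 1 without weights, without the filter, with age and with transcript counts. It was also 1 without the young diestrus mice, not among those 2 (Amigo2 in proestrus against estrus, -0.48). For pairs of KO stages the count of 4 became 0 by edgeR and without the young diestrus mice, 1 by DESeq2, without weights and without the filter, and 2 with transcript counts. With mice of the Cnih3 line only (39 mice), WT metestrus, proestrus and estrus were 1 mouse each, assumed to vary like the other groups, and the proestrus mouse was 8_2, the library with the lowest quality weight. There the counts were 5 for WT stages against males, 4 between WT stages, 2 between KO stages and 1, Pcp4 at -0.40, for KO against WT. The 5 were Avpr1b (1.52), Cacng5 (-0.78) and Amigo2 (-1.21) in diestrus and Necab2 (0.59) and Pcp4 (1.07) in proestrus, beside 43.6% and 17% of all genes called. The 4 between WT stages each set diestrus against 1 mouse. The 2 between KO stages were both in diestrus against proestrus, where 34.3% of all genes were called in the main fit. KO against WT includes the WT groups of 1 mouse, among them 8_2, the mouse with the highest Pcp4. A larger share of all genes was also called there than the 3.4% of the main fit. The WT groups of 1 mouse have no spread of their own. The counts of this fit are therefore no result about the members, and the value of Pcp4 is none about genotype. Between females and males the count rose from 0 to 1 without the young diestrus mice (Rgs14). Over single mice left out, the counts ran from 0 to 1 for females against males, 0 to 4 and 2 to 4 for WT and KO stages against males, 0 to 7 and 2 to 7 for pairs of WT and KO stages and 0 to 2 for KO against WT.

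Signs turned for small values. Pcp4 in WT females against males (-0.02) was 0.068 by edgeR, 0.070 by DESeq2, 0.057 without weights, 0.028 without the filter and 0.43 in the Cnih3 line (with mouse 8_2 as its proestrus), and -0.18 to 0.17 over single mice. Its KO value (0.07) was -0.013 by edgeR, -0.011 by DESeq2 and -0.0083 to 0.12 over single mice. Necab2 was 0.078 in WT mice of the Cnih3 line, and its KO value ran from -0.035 to 0.023 over single mice. Map3k15 was 0.058 in WT and -0.055 in KO mice without the young diestrus mice, and -0.14 to 0.10 in WT over single mice. Rgs14 in diestrus against estrus was -3.69 (WT) and -1.90 (KO) and in KO females against males 0.56 with transcript counts, which here miss its main coding transcript, and -0.071 in KO diestrus against estrus without the young diestrus mice.

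No replicate block was fitted, since mice carry names and no replicate numbers. Some names share a first part across groups, and what it marks was not given in the sources used here. Depth limits Avpr1b and Map3k15 most, at a median of 45 and 55 counts per library. For Avpr1b, 3 counts are 0.0499 to 0.124 CPM, for counting error only and with counts taken as deposited.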
